A study of Homo sapiens with 32 samples.

Results

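The genes described here are 9 members of the machinery that releases paused RNA polymerase II: the BET proteins BRD2 and BRD3, the P-TEFb subunits CDK9, CCNT1 and CCNT2, the P-TEFb inhibitor HEXIM1 and its partner LARP7, and the elongation complex members AFF4 and ELL2. They were chosen by name, as genes of this machinery, and are 9 of the 18980 coding genes listed in each deposited file. They were followed through 20 RNA-seq libraries of RH4 cells (an established line from a human alveolar rhabdomyosarcoma), in a study of compounds aimed at the acetyltransferases CBP and p300. Of the 32 samples in the series, those of ChIP-seq (11) and ChRO-seq (1) were not analysed here. The 16 treated libraries held A485 (an inhibitor of the catalytic activity of CBP and p300), dCBP, IHK-44 or JQAD, each at 100 nM and at 1000 nM, for 2 h and for 6 h. The 4 control libraries were DMSO, the solvent, at 2 h and 6 h, and a condition named NT at 2 h and 6 h, an abbreviation left unexplained by the labels. Each condition had 1 library, and all came from a single cell line, so values of single libraries have no replicate check.

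P-TEFb is the kinase formed by CDK9 with a T-type cyclin, and it phosphorylates the polymerase and its pausing factors so that transcription moves from the promoter into the gene body. Much of it is kept inactive in a small ribonucleoprotein built on the 7SK RNA, in which LARP7 protects the RNA and HEXIM1 binds and inhibits the kinase. BET proteins bind acetylated histones through their bromodomains and help bring active P-TEFb to chromatin, while AFF4 is the scaffold of the super elongation complex, in which ELL2 speeds the polymerase. CBP and p300 write some of the histone acetylation that bromodomains read, and a rise of HEXIM1 mRNA is widely used as a marker of cells treated with BET inhibitors.

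The series' title concerns CpG island density and dependence on CBP/p300, so the promoters of the members were read from RefSeq (GRCh38.p14), where 8 of the 9 had an entry. The 250 bases before the start site are shown for HEXIM1 and BRD2, the pair whose levels followed each other most closely, and for CDK9, the kinase that HEXIM1 inhibits. They lie at chr17:45148225-45148474 (plus strand), chr6:32968344-32968593 (plus strand) and chr9:127785784-127786033 (plus strand). Capitals mark each CG dinucleotide.
HEXIM1: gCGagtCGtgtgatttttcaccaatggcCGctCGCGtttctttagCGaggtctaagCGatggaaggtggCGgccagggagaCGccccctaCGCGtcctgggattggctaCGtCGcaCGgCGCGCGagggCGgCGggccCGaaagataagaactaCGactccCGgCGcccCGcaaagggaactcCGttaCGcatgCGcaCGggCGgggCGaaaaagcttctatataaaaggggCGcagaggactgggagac
BRD2: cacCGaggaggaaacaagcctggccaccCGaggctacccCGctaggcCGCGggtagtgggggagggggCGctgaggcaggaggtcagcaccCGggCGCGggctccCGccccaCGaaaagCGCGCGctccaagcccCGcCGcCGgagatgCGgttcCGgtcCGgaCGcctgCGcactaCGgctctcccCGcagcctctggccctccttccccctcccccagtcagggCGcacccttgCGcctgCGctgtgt
CDK9: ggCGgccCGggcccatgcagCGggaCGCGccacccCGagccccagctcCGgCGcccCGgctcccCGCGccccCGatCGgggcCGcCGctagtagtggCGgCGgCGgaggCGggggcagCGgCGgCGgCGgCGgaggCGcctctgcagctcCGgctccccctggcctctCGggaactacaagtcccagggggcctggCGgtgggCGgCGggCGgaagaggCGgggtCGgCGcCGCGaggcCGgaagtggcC
The printed stretches held 31, 27 and 37 CG dinucleotides respectively. Over the whole 300-base windows of the table (250 before and 50 after the start), HEXIM1 held 32, BRD2 30, CDK9 46 and BRD3 56, against a median of 22 (quartiles 9 and 32) over 15027 coding genes. The median of the 8 members was 31.5, and the lowest, CCNT1, had 26. The letters TATAAA, searched on both strands, were found in the window of HEXIM1 alone among the 8 members and in 9.56% of all windows. GGGCGG was in all 8 members' windows and in 59.5% of all windows, and CCAAT was in 4 of the 8 (HEXIM1, CCNT1, CCNT2 and LARP7) and in 36.6% of all. CACGTG was in the windows of CCNT1 and AFF4 (8.9% of all windows) and TGACGTCA in that of LARP7 (2.66%). These matches describe letters and not binding sites.

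The members were all well measured. Library totals over coding genes ran from 13466631 to 16799327 expected counts (estimated reads per gene), and each member received between 255 and 5281 in any library. On the length-scaled FPKM scale, which permits comparison between genes, BRD2 was the most abundant in the 4 control libraries at 57.1 ± 3.33 FPKM (SD, n = 4), followed by BRD3 at 45.2 ± 0.66. AFF4 (22.6 ± 0.85), LARP7 (20.1 ± 1.38), CDK9 (18.2 ± 1.15) and CCNT1 (16.5 ± 1.31) formed a middle group in which the ranges of neighbours overlapped. CCNT2 (10.2 ± 1.22), ELL2 (8.93 ± 1.06) and HEXIM1 (8.32 ± 0.66) were lowest, and ELL2 overlapped both of the others. The SDs span both control conditions and both times. Markers of the line were detected in every library but were not level. In CPM (counts scaled to the same total in each library), MYOD1 ran from 508 to 677 in the controls but was as low as 27.2 in a treated library, and MYOG from 264 to 300.1 but as low as 29.8. FOXO1 (169 to 186) was as low as 21.2, PAX3 (72.6 to 78.0) as low as 24.2, CDH15 (390.5 to 454) as low as 220.3 and DES (392 to 439) as low as 266. These lows all fell in 6 h libraries of dCBP or IHK-44, and their part in the results below was not tested. EPCAM (epithelium) was at 0 in every library while PTPRC (leukocytes) reached at most 0.06 CPM. PECAM1 (endothelium) was at 0.066 to 0.708 CPM and ALB (hepatocytes) at 0 to 0.872 CPM, low but detected, also in controls. The share of reads outside the coding rows was 5.63% to 6.43% in DMSO and NT, 4.64% to 6.37% with A485 and 5.72% to 7.46% with JQAD, but 8.36% to 11.3% with dCBP and 8.2% to 9.58% with IHK-44; its part in the results below was not tested.

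**Figure D1:**
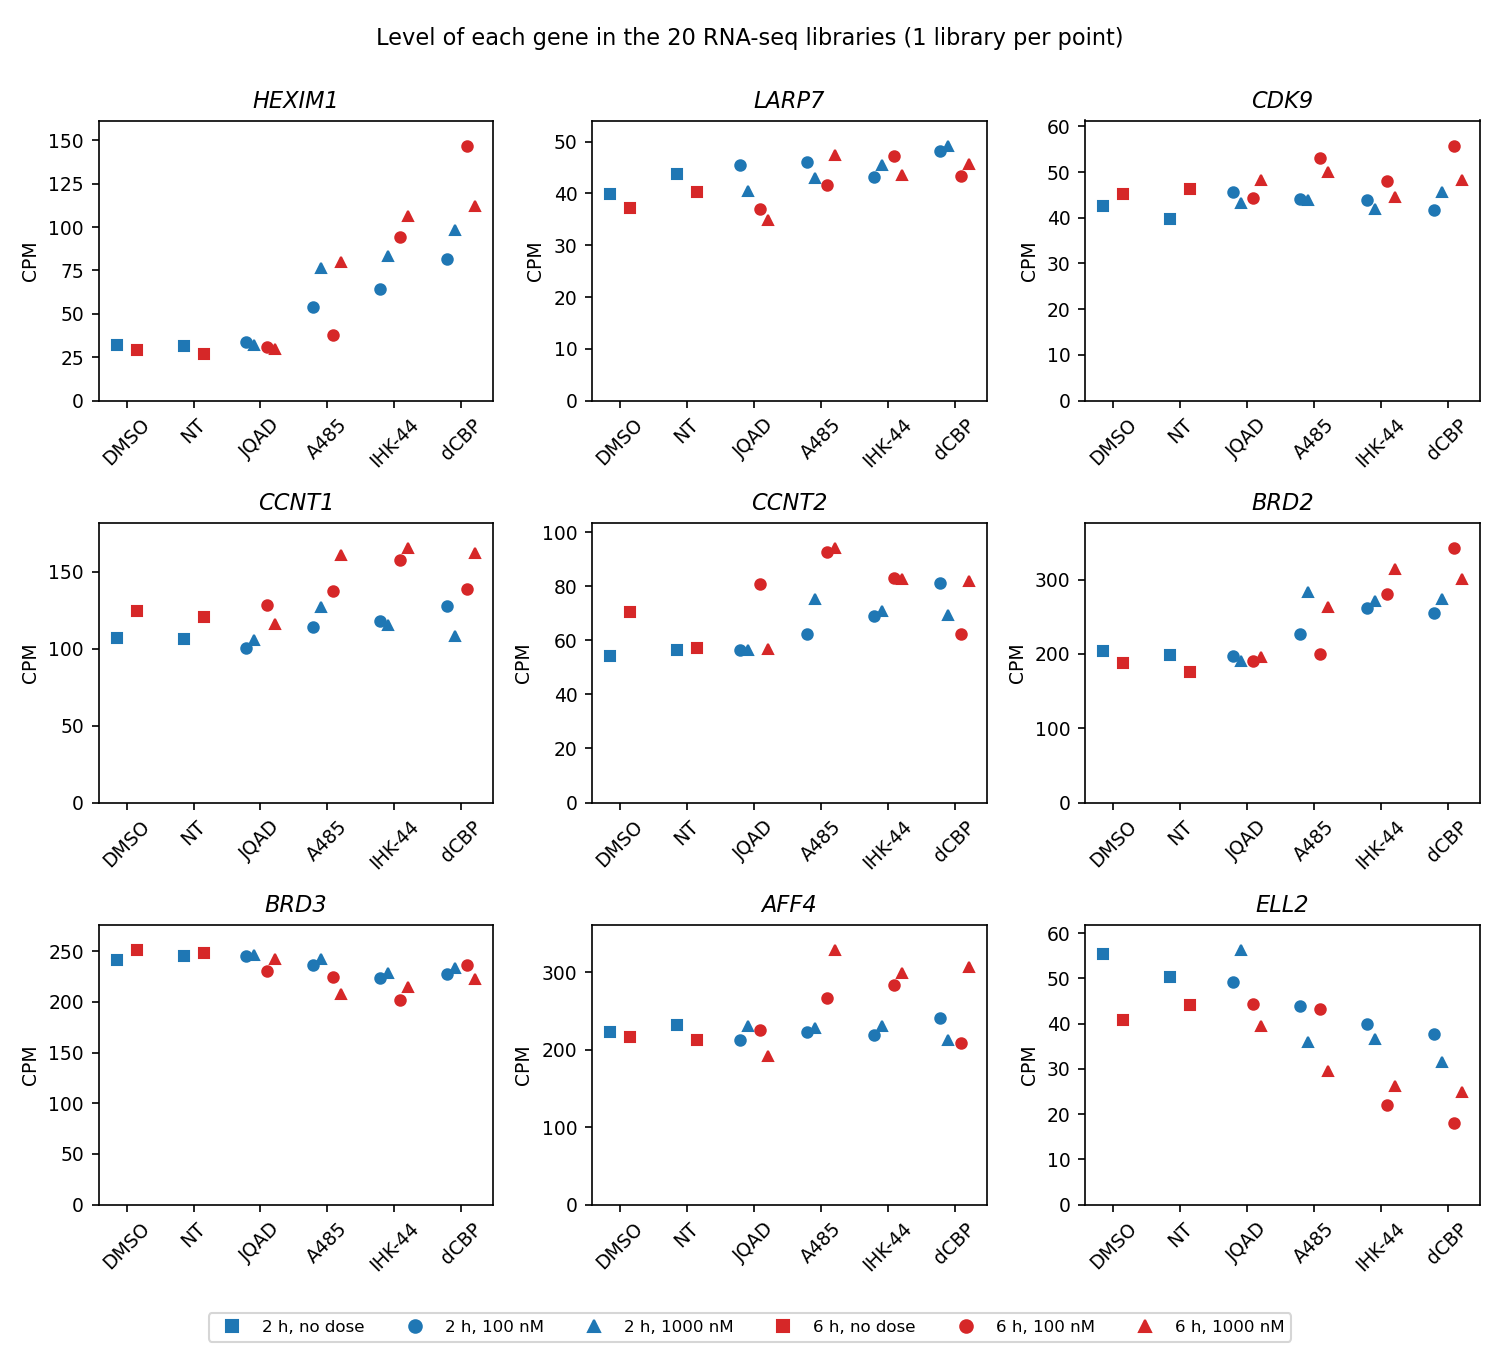
CPM (vertical axes, from 0) of the 9 genes in the 20 libraries, with 1 point per library, grouped along the horizontal axes by compound; blue is 2 h, red is 6 h, circles are 100 nM, triangles 1000 nM and squares DMSO or NT. HEXIM1 ran from 27.1 CPM in NT to 147 CPM with dCBP, while BRD3 stayed between 201 and 251 CPM.

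HEXIM1, the inhibitor of P-TEFb, was the member that moved most. In CPM it was higher with dCBP and IHK-44 at both doses and both times, and near the control level with JQAD. With A485 its mean over the 4 libraries (62.0 CPM) lay below those with IHK-44 (87.0 CPM) and dCBP (109.6 CPM). Single libraries did not all keep that order: 1000 nM A485 at 2 h (76.4 CPM) was above 100 nM IHK-44 at 2 h (64.2 CPM). In DMSO it was at 32.1 CPM at 2 h and 29.3 CPM at 6 h, and in NT at 31.4 and 27.1 CPM. With 100 nM dCBP it was at 81.4 CPM at 2 h and 147 CPM at 6 h, and with 1000 nM dCBP at 98.1 and 112 CPM. With IHK-44 the values were 64.2 and 94.3 CPM at 100 nM and 83.2 and 106 CPM at 1000 nM. All 8 libraries of these 2 compounds lay above the 4 controls, and the highest of all in CPM was 100 nM dCBP at 6 h. With A485 it was at 53.7 CPM at 2 h and 37.9 CPM at 6 h at 100 nM, and at 76.4 and 80.1 CPM at 1000 nM, so that the 100 nM library at 6 h lay nearest to the controls. With JQAD it was at 34.0 and 30.7 CPM at 100 nM and 32.3 and 29.7 CPM at 1000 nM, which overlaps the range of the 4 controls. Each of the 4 JQAD libraries was slightly above both controls of its own time, at 1.02-fold to 1.09-fold of their mean. In bulk RNA, a change in the share of cells that express a gene and a change in RNA per cell cannot be told apart.

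Against the mean of DMSO and NT of the same time, HEXIM1 was 2.56-fold (2 h) and 5.2-fold (6 h) higher with 100 nM dCBP, and 1.69-fold and 1.34-fold higher with 100 nM A485. Ranked among 12174 genes with a mean of at least 1 CPM, its log2 ratio stood between percentiles 99.6 and 99.9 in all 12 libraries of A485, dCBP and IHK-44 except 100 nM A485 at 6 h, where it stood at percentile 91.5. In the 4 JQAD libraries it stood between percentiles 67.9 and 82.2. These folds and ranks describe single libraries in CPM, and the folds depended on the scale. On the deposited TPM scale, HEXIM1 at 6 h was at 7.81 in DMSO and 7.35 in NT. With 100 nM dCBP at 6 h it was at 24.5 TPM, a smaller rise than in CPM. With 100 nM A485 at 6 h it was at 12.95 TPM, a larger rise than in CPM. HEXIM1 was highest on this scale with 1000 nM A485, at 29.4 TPM (2 h) and 27.2 TPM (6 h), so the order of the compounds also depended on the scale.

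A fit over all genes used edgeR's quasi-likelihood test with a time term, and the 4 libraries of a compound stood in for replicates. The spread therefore contains dose, and differences between compounds in the effect of time. In this fit HEXIM1 rose with dCBP by a log2 value of 1.72 (SE 0.25, 3.28-fold, Benjamini-Hochberg adjusted p = 0.0011). It ranked 32 by p among the 13260 genes tested. With IHK-44 it rose by 1.37 (SE 0.25, 2.59-fold, edgeR adjusted p = 0.00271), which became 1.26 and adjusted p = 0.0978 without the DMSO library of 6 h. With A485 the difference of 0.94 (SE 0.24, 95% interval 0.42 to 1.45) did not pass the threshold of 0.05 (edgeR adjusted p = 0.0856). That call depended on the setting: against DMSO and NT together the A485 value was 0.97 with adjusted p = 0.00838, DESeq2's Wald test gave adjusted p = 0.0138, and without 100 nM A485 at 6 h it was 1.12 with adjusted p = 0.0126. With JQAD the difference was 0.05 (interval -0.45 to 0.55, edgeR adjusted p = 1).

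**Figure D2:**
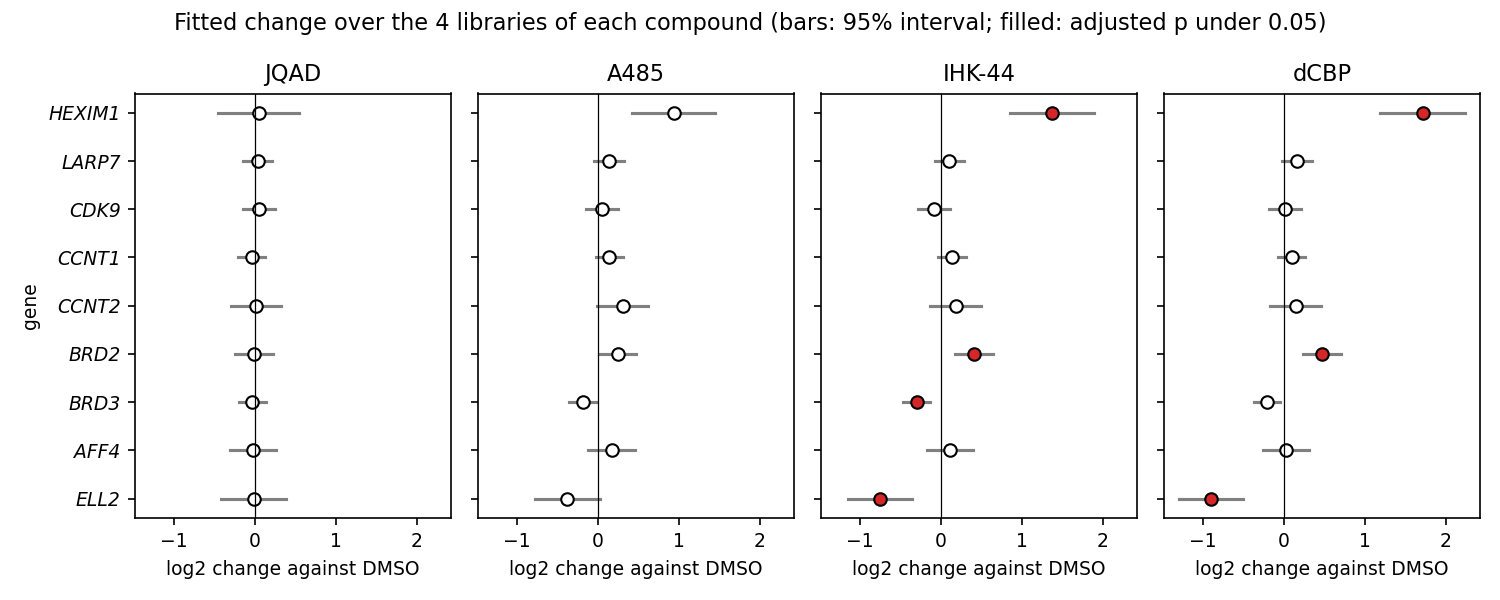
Fitted log2 change against DMSO (horizontal axes) of the 9 genes (vertical axis) over the 4 libraries of each compound, with 95% intervals as bars and filled points where the adjusted p was under 0.05. HEXIM1 lies at 1.72 for dCBP and 0.05 for JQAD, and ELL2 at -0.90 and -0.01.

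LARP7, which stabilises the 7SK RNA, did not pass edgeR's test with any compound. It was at 37.2 to 43.7 CPM in the controls, 41.6 to 47.5 CPM with A485, 43.4 to 49.2 CPM with dCBP, 43.2 to 47.3 CPM with IHK-44 and 34.9 to 45.6 CPM with JQAD. The ranges overlap throughout, and the largest fitted difference, with dCBP, was 0.17 (SE 0.09, edgeR adjusted p = 0.163). In limma on log2(CPM + 1), where the median of all genes was at 0.14, the dCBP value was 0.27 with adjusted p = 0.0411.

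The BET genes differed in direction with dCBP and IHK-44, where BRD2 was higher and BRD3 lower than in DMSO. Of these BRD3 values, only that with IHK-44 passed edgeR's test. BRD2 was at 203 and 187 CPM in DMSO at 2 h and 6 h, and at 198 and 175 CPM in NT. With dCBP it was at 256 CPM at 2 h and 342 CPM at 6 h at 100 nM, and at 273 and 300.02 CPM at 1000 nM. With IHK-44 it was at 262 and 280.1 CPM at 100 nM and 272 and 314 CPM at 1000 nM. All 8 of these libraries lay above all 4 controls. The share of all genes with such a separation was not counted, for BRD2 or for the other members. Among 12174 genes, the log2 ratio of BRD2 to same-time controls stood between percentiles 86.4 and 92.0 in these 8 libraries, below the percentiles of HEXIM1. With A485 it was at 283 and 263 CPM at 1000 nM but at 227 and 200.3 CPM at 100 nM, where the 6 h library was above both controls of its own time but below DMSO at 2 h. With JQAD it stayed between 189.8 and 197 CPM, within the range of the 4 controls of both times. Against controls of their own time, the JQAD libraries were below both at 2 h (0.949-fold and 0.98-fold of their mean) and above both at 6 h (1.05-fold and 1.08-fold). BRD2 rose with dCBP by a log2 value of 0.47 (SE 0.11, 1.39-fold, edgeR adjusted p = 0.00989) and with IHK-44 by 0.41 (SE 0.11, 1.33-fold, edgeR adjusted p = 0.0225). On the deposited TPM scale, where the median of all genes itself shifted by -0.25 with dCBP and -0.27 with IHK-44, the BRD2 values were 0.17 (limma adjusted p = 0.469) and 0.11 (limma adjusted p = 0.652), or 0.42 and 0.38 relative to those medians. For A485 the edgeR value was 0.24 (SE 0.11, adjusted p = 0.241) and for JQAD -0.01 (interval -0.24 to 0.22, adjusted p = 1).

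BRD3 was the steadier of the 2 genes. It was at 242 and 251 CPM in DMSO and at 245 and 248 CPM in NT, at 2 h and 6 h. With IHK-44 it was at 223 and 201 CPM at 100 nM and at 228 and 215 CPM at 1000 nM, all below the controls. With dCBP it was at 223 to 236 CPM, also below the controls, with A485 at 208 to 242 CPM and with JQAD at 230.3 to 246 CPM. BRD3 fell with IHK-44 by 0.30 on the log2 scale (SE 0.08, 0.812-fold, edgeR adjusted p = 0.0193). With dCBP the value was -0.21 (SE 0.08, edgeR adjusted p = 0.058), and with DMSO and NT pooled it was -0.21 with adjusted p = 0.0104. With A485 it was -0.19 (edgeR adjusted p = 0.215), a value that turned to 0.15 on the TPM scale, where the median gene was at 0.26.

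The kinase P-TEFb itself showed no edgeR call for any of its 3 subunit genes against DMSO. CDK9, the catalytic subunit, was at 39.8 to 46.2 CPM in the controls, 43.8 to 53.1 CPM with A485, 41.7 to 55.7 CPM with dCBP, 42.03 to 48.2 CPM with IHK-44 and 43.2 to 48.2 CPM with JQAD. Its fitted log2 differences were 0.05, 0.02, -0.09 and 0.05 in that order of compounds, and the 95% intervals reached no further than -0.29 and 0.26. The IHK-44 value was -0.43 (limma adjusted p = 0.0203) on the TPM scale, and -0.17 relative to the median gene there. CCNT1, its main cyclin partner, was at 106 to 125 CPM in the controls and reached 161 CPM with 1000 nM A485, 162 CPM with 1000 nM dCBP and 166 CPM with 1000 nM IHK-44, each at 6 h. At 2 h the 6 libraries of those compounds were at 108 to 128 CPM, above both controls of that time (107 and 106 CPM). In CPM the median gene of the libraries of these compounds was itself above the controls. Its log2 ratio was 0.025 to 0.078 at 2 h and 0.033 to 0.218 at 6 h. With 1000 nM dCBP at 2 h the log2 ratio of CCNT1 (0.022) was below that of the median gene (0.067). The fitted CCNT1 values of 0.14 (A485), 0.10 (dCBP) and 0.14 (IHK-44) against DMSO did not pass the test, with edgeR adjusted p of 0.331, 0.368 and 0.229. CCNT2, the alternative cyclin, was at 54.1 and 70.3 CPM in DMSO and at 56.3 and 57.0 CPM in NT. It was highest with A485 at 6 h, at 92.5 CPM for 100 nM and 94.1 CPM for 1000 nM, where the fitted value over the 4 libraries was 0.31 (SE 0.15, edgeR adjusted p = 0.272). JQAD at 100 nM and 6 h, at 80.9 CPM, stood apart from the other 3 JQAD libraries at 56.3 to 56.8 CPM.

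Because HEXIM1 binds the kinase, the length-scaled levels of HEXIM1 and CDK9 were set beside each other in each library. In the 4 controls HEXIM1 was at 7.48 to 8.95 FPKM and CDK9 at 16.7 to 19.3 FPKM, a ratio of 0.39 to 0.52. The 4 JQAD libraries gave 0.41 to 0.5. With dCBP the ratio was 1.3 (100 nM, 2 h), 1.75 (100 nM, 6 h), 1.42 (1000 nM, 2 h) and 1.54 (1000 nM, 6 h). With IHK-44 it was 0.97, 1.3, 1.31 and 1.58 in the same order, and with A485 0.81, 0.47, 1.16 and 1.06. HEXIM1 mRNA was thus above CDK9 mRNA in every dCBP library and below it in every control. The ratio concerns mRNA, and protein was not measured in these libraries.

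**Figure D3:**
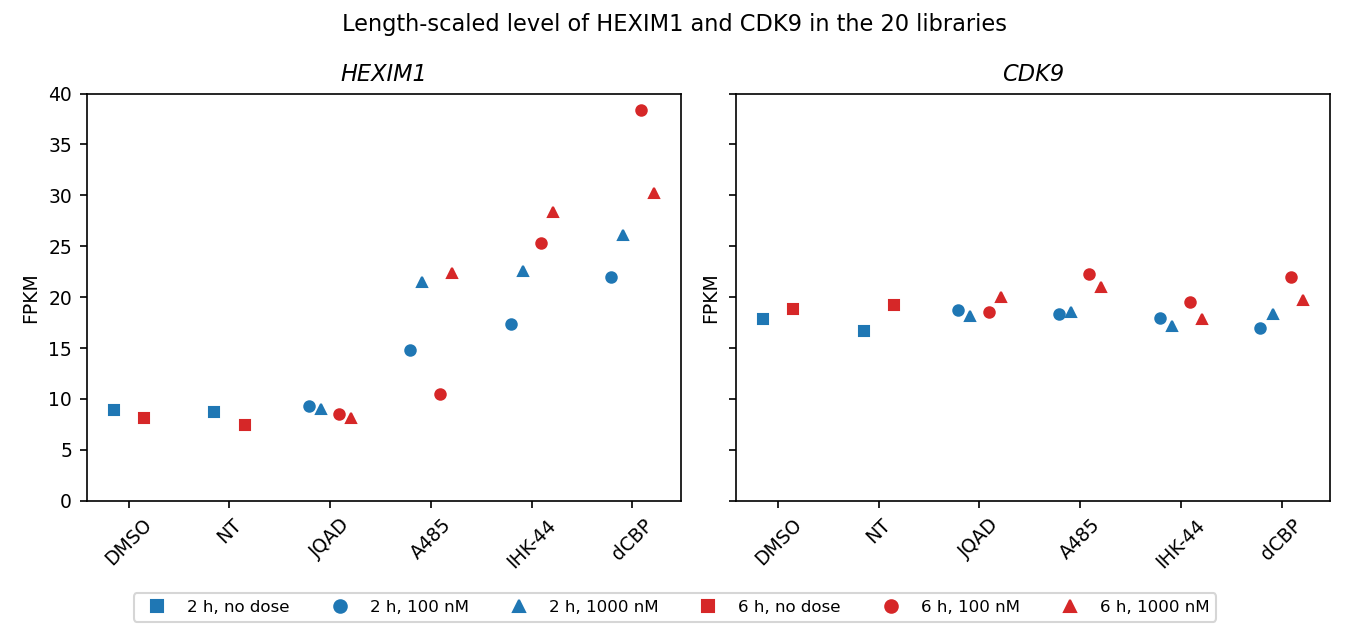
FPKM (vertical axis, from 0) of HEXIM1 and CDK9 in the 20 libraries by compound, with symbols as in the plot of CPM by gene. HEXIM1 reached 38.4 FPKM with 100 nM dCBP at 6 h, while CDK9 lay between 16.7 and 22.3 FPKM in all libraries.

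Of the super elongation complex genes, ELL2 fell and AFF4 did not pass edgeR's test against DMSO. ELL2, an elongation factor that suppresses pausing of the polymerase, was at 55.3 and 40.8 CPM in DMSO and at 50.4 and 44.02 CPM in NT, at 2 h and 6 h. With dCBP it was at 37.7 and 18.1 CPM at 100 nM and at 31.4 and 24.9 CPM at 1000 nM. With IHK-44 it was at 39.9 and 21.9 CPM at 100 nM and at 36.7 and 26.2 CPM at 1000 nM. Each of these 8 libraries was below both controls of its own time. Among 12174 genes, the log2 ratio of ELL2 stood between percentiles 3.1 and 10.4 in them. With A485 at 1000 nM it was at 36.0 and 29.5 CPM, while at 100 nM and 6 h its level of 43.2 CPM lay between DMSO and NT. With JQAD it was at 49.1 and 44.3 CPM at 100 nM and at 56.3 and 39.4 CPM at 1000 nM. ELL2 fell by 0.90 on the log2 scale with dCBP (SE 0.19, 0.535-fold, edgeR adjusted p = 0.00616) and by 0.75 with IHK-44 (SE 0.19, 0.593-fold, edgeR adjusted p = 0.0172). Without the DMSO library of 6 h these became -0.89 (adjusted p = 0.1) and -0.74 (adjusted p = 0.193). With A485 the value was -0.38 (SE 0.19, edgeR adjusted p = 0.285) and with JQAD -0.01 (interval -0.42 to 0.39).

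AFF4, the scaffold, was at 212 to 232 CPM in the controls and at 212 to 241 CPM in the 2 h libraries of A485, dCBP and IHK-44. At 6 h its level was 267 and 329 CPM with A485 and 283 and 299 CPM with IHK-44, at 100 nM and 1000 nM. With dCBP at 6 h it was at 307 CPM at 1000 nM but 209 CPM at 100 nM, the same library in which CCNT2 (62.4 CPM) was lowest of the treated 6 h libraries outside JQAD. The fitted AFF4 values were 0.17 (A485), 0.03 (dCBP) and 0.11 (IHK-44), with edgeR adjusted p of 0.496, 0.901 and 0.591.

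**Figure D4:**
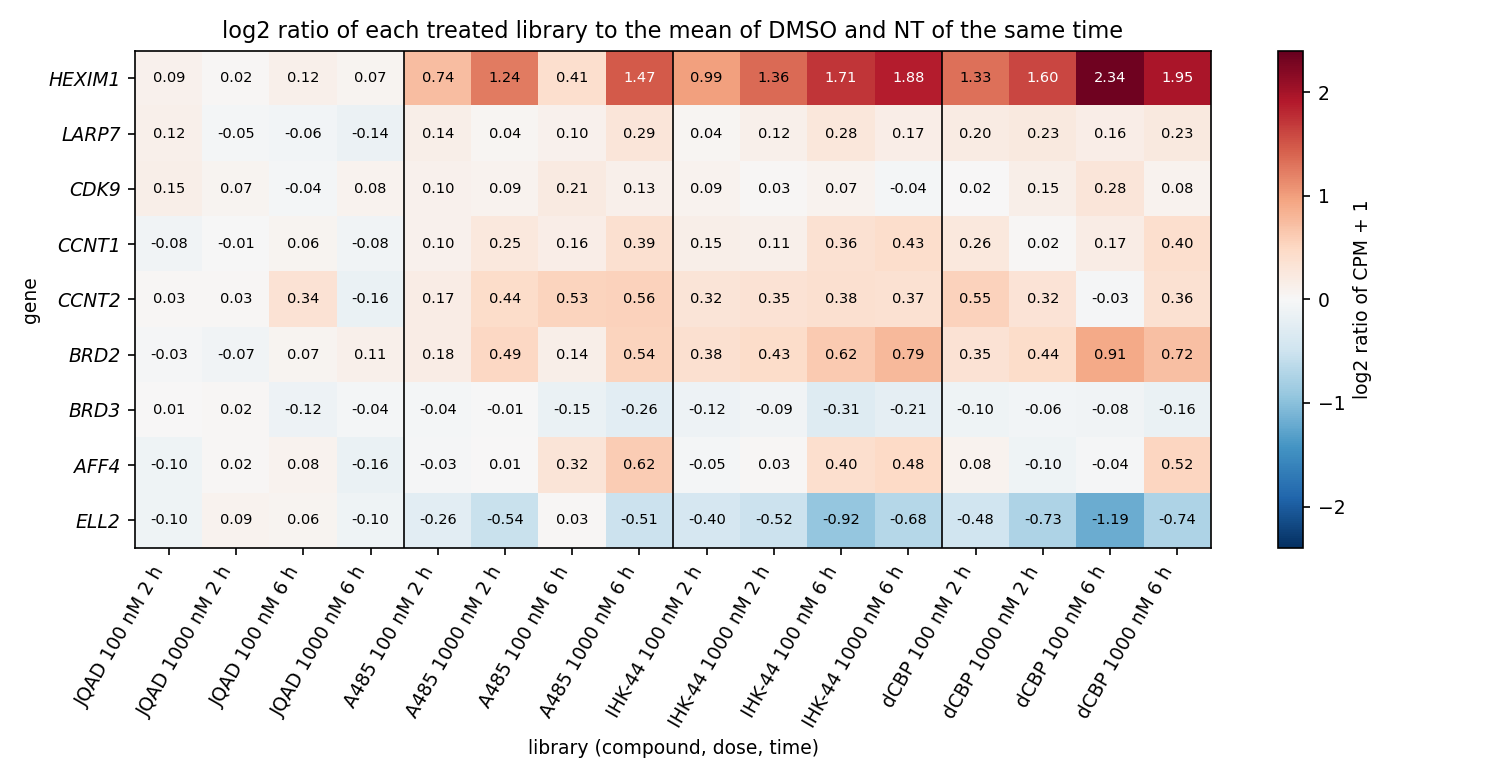
log2 ratio of CPM + 1 in each of the 16 treated libraries (columns) to the mean of DMSO and NT of the same time, for the 9 genes (rows), with red for higher and blue for lower. HEXIM1 reaches 2.34 and ELL2 -1.19 in 100 nM dCBP at 6 h, and HEXIM1 lies between 0.02 and 0.12 with JQAD.

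Counted together, 3 of the 9 members were called with dCBP (2 higher, 1 lower), where edgeR called 23.7% of all genes tested (11.8% higher and 11.8% lower). With IHK-44, 4 of 9 were called (2 higher, 2 lower), against 16.9% of all genes (7.74% higher and 9.21% lower). The median log2 value of the 9 was 0.10 with dCBP and 0.11 with IHK-44, against 0.05 and 0.04 over all genes. With A485, 0 of 9 were called by edgeR, against 0.271% of all genes. Of these, 3 had an unadjusted p under 0.05, and DESeq2 called 1 (HEXIM1), as did limma on log2(TPM + 1), while limma on log2(CPM + 1) called 0. With JQAD, 0 of 9 were called by edgeR, DESeq2 or either limma fit, 0 had an unadjusted p under 0.05 in edgeR, and 0% of all genes were called. NT against DMSO also gave 0 members and 0% of all genes, with 0 members at an unadjusted p under 0.05 and 0 by DESeq2 or limma. The IHK-44 count fell to 0 without the DMSO library of 6 h, to 1 without 1000 nM IHK-44 at 6 h, and to 2 without either the DMSO library of 2 h or 100 nM IHK-44 at 6 h. The dCBP count fell to 1 (HEXIM1) without the DMSO library of 6 h, where BRD2 had an adjusted p of 0.184. Without 1000 nM IHK-44 at 6 h the lost calls of that compound were BRD2 (adjusted p = 0.0695), BRD3 (0.0529) and ELL2 (0.0532).

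A further fit over all 20 libraries had a level for each treatment at each time. It set the 2 doses of a compound against the mean of DMSO and NT of that time, and showed HEXIM1 already higher at 2 h. DMSO and NT had 1 library per level, so the spread came from the pairs of doses of all compounds. At 2 h, 1 member was called with dCBP (2.75% of all genes were called) and 1 with IHK-44 (2.72%), in both cases HEXIM1. It rose by 1.44 with dCBP (SE 0.26, edgeR adjusted p = 0.02) and by 1.14 with IHK-44 (SE 0.26, edgeR adjusted p = 0.0302). With A485 at 2 h the HEXIM1 value was 0.97 (SE 0.26) and 0 members were called by edgeR (0% of all genes). There, 3 members had an unadjusted p under 0.05, DESeq2 called 1 (HEXIM1), as did edgeR without the filter on low counts, and both limma fits called 0. The members called at 2 h also moved with the tool. With dCBP, DESeq2, edgeR without the filter and limma on log2(TPM + 1) called ELL2 beside HEXIM1, and with IHK-44 limma on log2(TPM + 1) called BRD3 and ELL2 but not HEXIM1. Both 2 h calls rested on few libraries. Each was lost when DMSO or NT of 2 h, or either library of the compound, was left out (adjusted p up to 0.195 for dCBP and 0.281 for IHK-44), and the IHK-44 call also without 100 nM JQAD at 2 h (0.0514). Against DMSO alone the dCBP value was 1.42 with adjusted p = 0.0883 and the IHK-44 value 1.12 with adjusted p = 0.167.

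At 6 h, 4 members were called with dCBP (41.7% of all genes were called, 21.7% higher and 20% lower) and 4 with IHK-44 (38.2%, 18.9% higher and 19.3% lower), in both cases HEXIM1 and BRD2 higher and BRD3 and ELL2 lower. These counts were near the shares of all genes, so the values below describe single genes and not the members as a set. HEXIM1 rose by 2.05 with dCBP (SE 0.26, 4.13-fold, edgeR adjusted p = 8.48e-05) and by 1.67 with IHK-44 (SE 0.26, 3.17-fold, edgeR adjusted p = 0.000257). BRD2 rose by 0.67 (edgeR adjusted p = 0.000653) and 0.55 (0.00269), and ELL2 fell by 1.14 (0.000727) and 0.98 (0.00185). BRD3 fell by 0.28 with dCBP (edgeR adjusted p = 0.0224) and by 0.42 with IHK-44 (0.00198), and the dCBP value was -0.12 with adjusted p = 0.208 in limma on log2(CPM + 1). That BRD3 call was also lost without DMSO (0.0729), NT (0.0591) or 1000 nM dCBP (0.0907) of 6 h. On the TPM scale the BRD2 values at 6 h were 0.40 (limma adjusted p = 0.175) and 0.31 (0.327). With A485 at 6 h, 1 member was called (12.2% of all genes): HEXIM1 rose by 0.97 (SE 0.26, edgeR adjusted p = 0.03). Without 1000 nM A485 at 6 h that value was 0.39 (adjusted p = 0.467), it was 0.92 with adjusted p = 0.142 against DMSO alone, and 1.03 with adjusted p = 0.0951 without DMSO of 6 h. With A485 at 6 h other tools called more members beside HEXIM1: CCNT2 in limma on log2(CPM + 1) and in edgeR without the filter, CCNT2 and BRD3 in DESeq2, CCNT2 and BRD2 in limma on log2(TPM + 1), and BRD3 under DESeq2's scaling in edgeR. In limma on log2(CPM + 1) the members called at 6 h with IHK-44 were 6, with AFF4 and CCNT1 beside the 4 above, and with dCBP CCNT1 took the place of BRD3. On that scale the median gene was at 0.14 with either compound against DMSO. JQAD gave 0 members by edgeR, DESeq2 and limma at 2 h and at 6 h (0% of all genes at either time), with 0 at an unadjusted p under 0.05.

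A call at 6 h and none at 2 h does not show a difference between times, and the difference itself was tested. It passed for 0 members with A485 (0.0074% of all genes), dCBP (4.93%), IHK-44 (6.16%) and JQAD (0%) in edgeR, and for 0 members in DESeq2 and both limma fits. At an unadjusted p under 0.05 there was 1, AFF4 with A485. The 6 h response of HEXIM1 exceeded the 2 h response by 0.61 with dCBP (95% interval -0.15 to 1.38) and by 0.52 with IHK-44 (-0.25 to 1.29). For A485 the difference was -0.00 (-0.80 to 0.80).

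Dose was tested in a fit of the 16 treated libraries that compared the 2 doses of a compound within each time. The clearest contrast was HEXIM1 with A485, which was 0.72 higher at 1000 nM than at 100 nM (SE 0.17, 95% interval 0.34 to 1.103) but did not pass (edgeR adjusted p = 0.094). No member was called by edgeR for A485 (0.929% of all genes), dCBP (0%), IHK-44 (0.107%) or JQAD (0%). For A485, 3 members had an unadjusted p under 0.05 (HEXIM1, BRD2 and ELL2), DESeq2 called HEXIM1 (adjusted p = 0.0112), and both limma fits called 0. For the other 3 compounds there were 0 at that unadjusted threshold and 0 by DESeq2 or limma. BRD2 with A485 was 0.29 higher at 1000 nM (0.04 to 0.53) and ELL2 was at -0.49 (-0.88 to -0.09). For dCBP the HEXIM1 difference between doses, averaged over the times, was -0.09 (-0.46 to 0.28). The 2 times went opposite ways: 1000 nM was above 100 nM at 2 h (98.1 and 81.4 CPM) and below it at 6 h (112 and 147 CPM). The average therefore does not describe either time. The 100 nM library of 6 h also had the highest share of reads outside the coding rows (11.3%), whose part was not tested. For IHK-44 the HEXIM1 difference between doses was 0.24 (-0.13 to 0.61).

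The 4 compounds were also set against each other directly at matched doses and times, in 6 pairs and 1 joint test, with p-values adjusted over all genes within each comparison. The joint test of equal effects called 4 of 9 members, HEXIM1, BRD2, BRD3 and ELL2, against 29.6% of all genes. Against JQAD, dCBP differed in 4 members (35.3% of all genes) and IHK-44 in 4 (32.5%), the same 4 genes. Whether these counts exceed the shares of all genes was not tested. HEXIM1 was higher than with JQAD by 1.67 with dCBP (SE 0.20, edgeR adjusted p = 0.000132), by 1.33 with IHK-44 (SE 0.19, edgeR adjusted p = 0.000257) and by 0.89 with A485 (SE 0.19, edgeR adjusted p = 0.0183). The last was the 1 member called between A485 and JQAD (4.91% of all genes). It had an adjusted p of 0.105 without 1000 nM A485 at 6 h, 0.0815 without 1000 nM A485 at 2 h and 0.0755 without 1000 nM JQAD at 6 h. ELL2 was lower than with JQAD by -0.89 with dCBP (SE 0.16, edgeR adjusted p = 0.00117) and -0.74 with IHK-44 (SE 0.16, edgeR adjusted p = 0.00347). The BRD3 call between dCBP and JQAD (-0.18, edgeR adjusted p = 0.0371) was lost in several settings. It was -0.07 with adjusted p = 0.3 in limma on log2(CPM + 1), and had an adjusted p of 0.0669 without 1000 nM dCBP at 6 h, 0.0513 without 1000 nM JQAD at 2 h and 0.103 without 1000 nM JQAD at 6 h.

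Between dCBP and IHK-44, 0 members were called by edgeR, DESeq2 or limma (0% of all genes), with 0 at an unadjusted p under 0.05. The HEXIM1 difference was 0.34 in favour of dCBP, with a 95% interval of -0.05 to 0.73, and the BRD2 difference 0.06 (-0.13 to 0.25). Between A485 and dCBP edgeR called 0 members (0.724% of all genes), with HEXIM1 at -0.78 (-1.18 to -0.38, adjusted p = 0.0574) and 3 members at an unadjusted p under 0.05. This pair changed with the tool: DESeq2 called HEXIM1 and ELL2, and limma on log2(CPM + 1) and edgeR without the filter called HEXIM1. Between A485 and IHK-44 edgeR called 0 (0.882% of all genes), with HEXIM1 at -0.44 (-0.83 to -0.04, adjusted p = 0.25) and 2 at an unadjusted p under 0.05, and DESeq2 and limma on log2(CPM + 1) called 0. Limma on log2(TPM + 1) called 8 of 9 members in each of these 2 pairs, on a scale where the median gene itself differed between A485 (0.26) and both other compounds (-0.25 and -0.27).

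HEXIM1 and BRD2 followed each other across the libraries. Over the 20 libraries Pearson's r of log2(CPM + 1) between them was 0.98, and BRD2 ranked second of 12174 genes in likeness to HEXIM1, between SESN2, a stress-induced regulator of metabolism (0.99), and ZNF746 (0.97). The genes most like BRD2 were HEXIM1, SESN2 and the zinc finger gene ZNF764 (0.98 each). Within the 12 libraries of A485, dCBP and IHK-44 alone, r between HEXIM1 and BRD2 was 0.96, and within the 8 libraries of DMSO, NT and JQAD it was 0.77. HEXIM1 and ELL2 gave -0.86 in the 12 libraries and 0.66 in the 8. BRD3 gave -0.08 and -0.19 with HEXIM1. These values are descriptions: the libraries share their compounds, times and cell line.

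**Figure D5:**
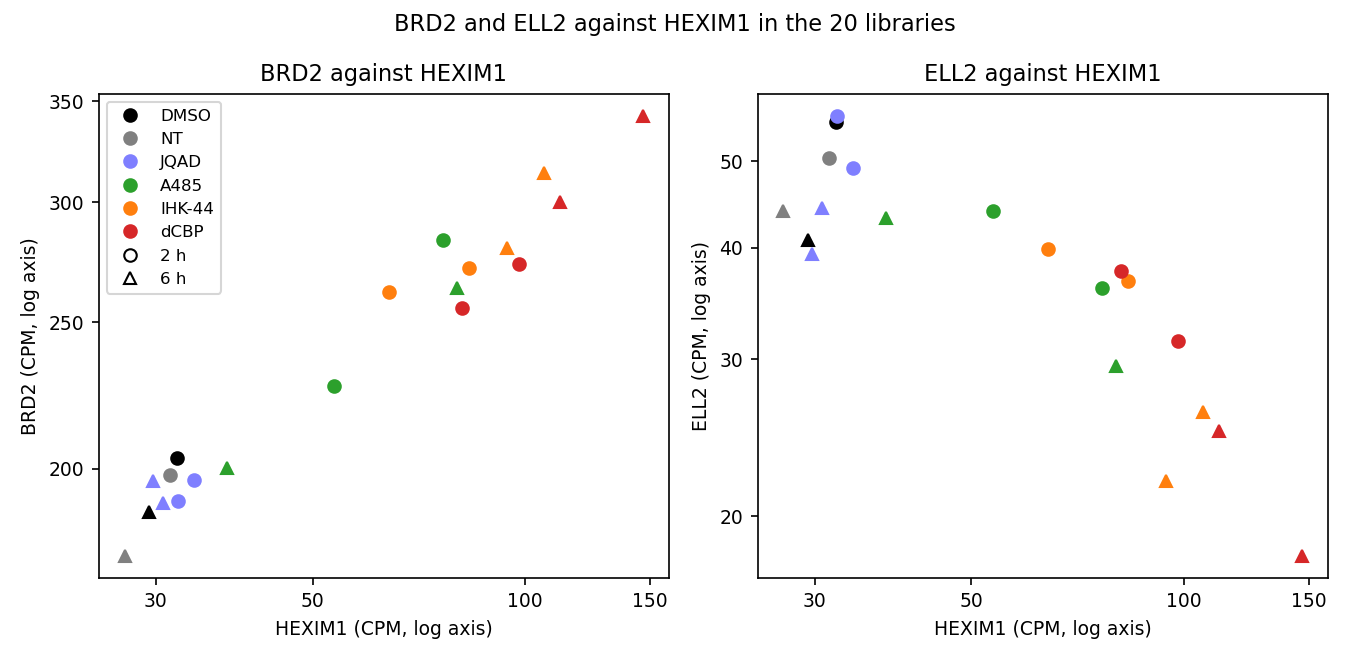
BRD2 (left) and ELL2 (right) against HEXIM1, in CPM on log axes, with 1 point per library, coloured by compound, circles for 2 h and triangles for 6 h. Both run from the controls and JQAD near 30 CPM of HEXIM1 to 100 nM dCBP at 6 h, with BRD2 at 342 CPM and ELL2 at 18.1 CPM.

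Other genes of the pathway were read from a list of 32 symbols, of which 31 were in the files and 30 were tested. Against DMSO, edgeR called 5 with dCBP (4 higher, 1 lower), which is 16.7% of the list beside 23.7% of all genes. With IHK-44 it called 3 (2 higher, 1 lower), or 10.0% beside 16.9%, and 0 with A485 or JQAD. At 6 h, 13 were called with dCBP (9 higher, 4 lower), or 43.3% of the list beside 41.7% of all genes. With IHK-44 at 6 h 9 were called (7 higher, 2 lower), or 30.0% beside 38.2%, and with A485 2 (both higher), or 6.67% beside 12.2%. At 2 h MEPCE alone was called, higher, with dCBP and with IHK-44, or 3.33% of the list beside 2.75% and 2.72% of all genes. These shares were near or below those of all genes, so the values of single genes below describe those genes and not the list. The median of the 30 was 0.07 with dCBP and 0.07 with IHK-44 against DMSO, beside 0.05 and 0.04 over all genes tested.

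Around the 7SK particle, MEPCE, which caps the 7SK RNA, rose with dCBP at 2 h by 0.58 (SE 0.11, edgeR adjusted p = 0.0221) and at 6 h by 0.56 (SE 0.11, adjusted p = 0.00145). HEXIM2, the paralogue of HEXIM1, rose with dCBP by 0.60 against DMSO (SE 0.18, edgeR adjusted p = 0.0269) from a mean of 10.4 CPM in the controls. NT itself stood 0.39 above DMSO for this gene (SE 0.21). Against the mean of DMSO and NT, HEXIM2 with dCBP was not called at 2 h (0.39, edgeR adjusted p = 0.295) or 6 h (0.42, 0.118). MNAT1, a subunit of the CDK7 kinase of TFIIH, fell at 6 h by 0.87 with dCBP (edgeR adjusted p = 0.000847) and by 0.52 with IHK-44 (0.0174), while CDK7 rose with IHK-44 by 0.54 against DMSO (0.008). CDK13, a kinase of elongating polymerase, fell at 6 h by 0.29 with dCBP (edgeR adjusted p = 0.0122) and by 0.35 with IHK-44 (0.00482), and CDK12, its relative, rose by 0.31 with A485 (0.0452).

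Of the super elongation complex, AFF1, an alternative scaffold, rose at 6 h by 0.56 with A485 (edgeR adjusted p = 0.0251), 0.68 with dCBP (0.00192) and 0.67 with IHK-44 (0.00212). EAF1, a partner of ELL proteins, rose at 6 h by 0.54 with dCBP (edgeR adjusted p = 0.00192) and 0.61 with IHK-44 (0.00086), and ELL, the paralogue of ELL2, rose with dCBP by 0.55 (0.0211). Among pausing and elongation factors, PAF1, a core subunit of the PAF complex, rose at 6 h by 0.74 with dCBP (edgeR adjusted p = 0.000702) and 0.56 with IHK-44 (0.00461), and NELFA, of the pausing complex NELF, by 0.55 (0.00429) and 0.39 (0.0313). NELFB (0.36), SUPT5H (0.30) and SUPT6H (0.30) rose with dCBP at 6 h, and CTR9 rose with IHK-44 (0.42). TCEA1, which rescues backtracked polymerase, fell with dCBP at 6 h by 0.52 (edgeR adjusted p = 0.00516), and SUPT16H, of the histone chaperone FACT, by 0.34 (0.0064).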

How the data were processed

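RNA-seq of RH4 cells was analysed in 20 libraries, 1 per condition. Per the submitters' processing notes the tools included STAR 2.5.3a and RSEM 1.3.3, with builds hg38 and mm10 named without a role. The authors deposited, per gene, expected counts (88.2% whole numbers), TPM and FPKM scaled over all genes they quantified, and CPM scaled over the coding rows. Coding rows held 27.9% to 53.9% of the TPM, so CPM was used for levels, and FPKM for comparison between genes. Single-library log2 ratios used a pseudocount of 1.

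Expected counts were rounded and fitted with edgeR 4.0.16 (R 4.3.3; TMM scaling, filterByExpr, quasi-likelihood test, Benjamini-Hochberg over all genes tested, threshold 0.05). Against DMSO the model had a level per treatment and a time term (13260 genes, 13 residual degrees of freedom). The fit by time had 12 levels of treatment and time (13516 genes, 8 degrees), and the dose fit used the 16 treated libraries (13137 genes, 4 degrees). p-values measure the spread between these libraries that each model leaves. Against DMSO it includes dose and differences between compounds in the effect of time. In the fit by time it includes dose, and in the dose fit the difference of dose effects between times. Scripts were tested on simulated counts. Alternatives were DESeq2 1.42.0, limma 3.58.1 on log2(CPM + 1) and log2(TPM + 1), other scaling, no filter, other controls and leaving out each library. The members, the pathway list and the tests were chosen with earlier results of these data known. All 9 members were named, other pathway genes when called, and the 3 genes most like HEXIM1 and BRD2 by Pearson's r.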

Additional observations from a re-analysis of the deposited data

Results flagged for a closer look

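The effects of the 4 compounds differed from each other for 4 of the 9 members in edgeR's quasi-likelihood F-test of equal effects. HEXIM1 had an adjusted p of 0.000228, from a log2 value of 1.72 with dCBP to 0.05 with JQAD. ELL2 had an adjusted p of 0.00306 (-0.90 with dCBP, -0.01 with JQAD). BRD2 had an adjusted p of 0.0043 (0.47 with dCBP, -0.01 with JQAD), and BRD3 an adjusted p of 0.0243 (-0.30 with IHK-44, -0.03 with JQAD). Over all genes tested, 29.6% passed the same test. The values describe these 4 genes, and the count was not tested against that share.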

How the results depend on the processing

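HEXIM1 with dCBP passed the test in all 7 other settings (log2 1.24 to 1.80) and in all 20 fits that left out 1 library (1.56 to 1.83), and 0 members were called with JQAD or for the time difference in any setting. Members called with A485 went from 0 to 1 under DESeq2, limma on log2(TPM + 1) and pooled DMSO and NT. Dose calls went from 0 to 1 under DESeq2 and without the filter on low counts. Calls summed over the times and compounds went from 11 to 7 against DMSO alone. On the TPM scale the calls between pairs of compounds went from 9 to 30 and those of the joint test from 4 to 9. That scale moves with the rows outside the coding genes, and the cause was not tested. With 1 library left out the counts were 0 to 1 (A485), 1 to 4 (dCBP), 0 to 4 (IHK-44), 7 to 11 (pairs), 3 to 4 (joint test), 9 to 17 (each time) and 0 to 1 (dose). Where leaving out a library left 1 in its level, that library is assumed to vary like the other groups. On the TPM scale BRD2 against JQAD was 0.15 with dCBP (limma adjusted p = 0.396) and 0.09 with IHK-44 (0.615), and HEXIM1 with IHK-44 at 2 h was 0.64 (0.118). Single-library log2 ratios of the members also depended on the scale: 119 moved on deposited TPM and 25 stayed the same. Against DMSO alone 8 moved, and against NT alone 8 moved. With a pseudocount of 0.1 all 144 stayed the same. Values of the other pathway genes come from the edgeR fits alone.

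Signs turned only in values that did not pass the test in edgeR. On log2(TPM + 1) these were BRD3 with A485 (0.15), with dCBP AFF4 (-0.34), CCNT1 (-0.25), CCNT2 (-0.23), CDK9 (-0.33) and LARP7 (-0.18), with IHK-44 AFF4 (-0.26), CCNT1 (-0.22), CCNT2 (-0.19) and LARP7 (-0.26), and with JQAD BRD2 (0.019) and CCNT2 (-0.008). CDK9 turned to -0.011 with dCBP under DESeq2's scaling and test, and to 0.025 with IHK-44 in limma on log2(CPM + 1). With pooled controls JQAD gave 0.025 for BRD2 and -0.024 for LARP7. With NT in place of DMSO, LARP7 was -0.006 with IHK-44, and JQAD gave 0.065 for BRD2, 0.001 for CCNT1, 0.005 for ELL2 and -0.078 for LARP7. With 1 library left out, dCBP gave -0.081 to 0.114 for AFF4 and -0.042 to 0.044 for CDK9. JQAD then gave -0.105 to 0.068 for AFF4, -0.067 to 0.051 for BRD2, -0.111 to 0.059 for BRD3, -0.098 to 0.128 for CCNT2, -0.062 to 0.045 for ELL2, -0.059 to 0.165 for HEXIM1 and -0.018 to 0.069 for LARP7. No paired analysis was possible because the labels give no replicate numbers and each condition had 1 library. With 1 library per condition, effects of a single dose at a single time could not be tested.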

Other observations

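The 8 libraries of DMSO, NT and JQAD differed between times in some members, which is given as values without a test. ELL2 was at 49.1 to 56.3 CPM in the 4 libraries of 2 h and at 39.4 to 44.3 CPM in the 4 of 6 h. CCNT1 was at 101 to 107 CPM at 2 h and at 116 to 128 CPM at 6 h. HEXIM1 was at 31.4 to 34.0 CPM at 2 h and at 27.1 to 30.7 CPM at 6 h. CCNT2 was at 54.1 to 56.4 CPM at 2 h and at 56.8 to 80.9 CPM at 6 h. None of these pairs of ranges overlaps, but those of CCNT2 were barely apart (56.43 and 56.77 CPM), with NT at 56.28 and 57.02 CPM. For BRD2, BRD3, CDK9, AFF4 and LARP7 the ranges of the 2 times overlapped. The share of all genes without overlap was not counted. For ELL2, CCNT1 and HEXIM1, a comparison of a 6 h library with a 2 h control would mix in these differences.

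In the 100 nM dCBP library at 6 h, HEXIM1 (147 CPM), BRD2 (342 CPM) and CDK9 (55.7 CPM) were at their highest CPM of the 20 libraries. ELL2 (18.1 CPM) was at its lowest, while AFF4 (209 CPM) and CCNT2 (62.4 CPM) were below the 1000 nM dCBP library of the same time (307 and 81.8 CPM). The same library had the highest share of reads outside the coding rows (11.3%) and the lowest coding share of TPM (27.9%). On the TPM scale its HEXIM1 (24.5) was below 1000 nM A485 at 2 h (29.4), and its CDK9 (14.0) was below DMSO of 6 h (18.2). ELL2 was lowest on that scale too (2.09). The part of these shares in the values was not tested.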
